A study of Mus musculus with 6 samples.

Results

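The genes described here are the transforming growth factor beta (TGF-beta) ligands Tgfb1, Tgfb2 and Tgfb3, the receptors Tgfbr1 and Tgfbr2, and the target genes Tgfbi, Skil, Ctgf and Cyr61. They were chosen by gene name among the spots that are not controls, and all their probes were used, which gave 16 of 56605 probes for 9 of 37074 gene names. Liver RNA came from nude mice, an athymic strain, and each of 6 livers was hybridised to its own 1-colour Agilent array. The 3 sEV livers are from mice given small extracellular vesicles (membrane particles shed by cells) of SW620, an established human colorectal cancer line, at 20 µg per tail vein injection and 10 injections over 21 days. The 3 control livers are from nude mice given PBS 10 times over the same period. Each group held 5 mice, the arrayed sEV mice were a random draw, and how the control livers were chosen, the sex and the age of the mice are not given in the sources used here. The hosts still have innate immune and B cells, and the vesicles come from 1 human line, which limits the experiment as a model. The series title puts its question in terms of an inflammatory pre-metastatic niche in the liver, and its design text, written with these arrays in hand, lists matrix remodelling among the altered themes, to which TGF-beta targets belong.

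TGF-beta is secreted as a latent complex that is held in the matrix by latent TGF-beta binding proteins and must be released before it can act. The active dimer binds the type II receptor, encoded by Tgfbr2, which recruits and activates the type I receptor, encoded by Tgfbr1, and the receptor pair phosphorylates SMAD2 and SMAD3, which enter the nucleus with SMAD4. In liver the pathway is best known for driving hepatic stellate cells to make matrix and for restraining hepatocyte growth. Tgfbi encodes a secreted matrix protein named for its induction by TGF-beta. Skil encodes SnoN, a SMAD corepressor that is degraded and then made again after a signal. Ctgf and Cyr61 encode matricellular proteins of the CCN family, now named Ccn2 and Ccn1, and both are also targets of YAP and TAZ, the coactivators of TEAD factors.

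Between 49.9% and 54.7% of the spots other than controls were well above background on each array. The processed signal at the 75th percentile of probes ran from 294 to 339 in control livers and from 268 to 281 in sEV livers. Values below are log2 of the processed signal minus that percentile, so that 0 is the array's own 75th percentile, and differences are sEV minus control. All 8 hepatocyte markers, among them Alb and Ttr, were well above background on the 6 arrays, as the liver label requires. All arrays shared 1 slide, with sEV 1 beside the 3 controls in its row 1 and the other sEV arrays in row 2, so that slide row moves with the groups. Row 2 holds no control, so a fit with slide row as a block and a fit within row 1 give the same difference, that of sEV 1 alone against 3 controls, and differ only in whether sEV 2 and sEV 3 add to the estimated spread. In both, sEV 1 is assumed to vary like the other livers, and a p-value from 1 treated liver is no test of the treatment. P-values set the group difference against the spread between single livers, each on its own array, so that liver and array variation are not told apart.

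In sEV livers the TGF-beta ligands and receptors did not pass the test, and of the target genes Cyr61 and Tgfbi fell while Ctgf and Skil did not pass. Cyr61 fell 2.56-fold and Tgfbi 1.97-fold. All 9 genes were tested on a probe well above background on every array, and 2 were lower, 0 higher and 7 did not pass at a limma adjusted p of 0.05 over 19447 genes. At an unadjusted p under 0.05, Tgfb2 joined them to make 3. The 2 calls are 22.2% of the 9 genes, against 17% of all genes called in either direction, 7.95% called lower and 9.08% called higher, so the share is near the background and is not a result about the group as such. The median log2 difference of the 9 genes was -0.08, against 0.03 for all genes tested. The sEV and control livers did not overlap for 3 of the 9 genes (33.3%), against 40.9% of all genes. In bulk liver, fewer cells of a type and less RNA per cell cannot be told apart.

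**Figure D1:**
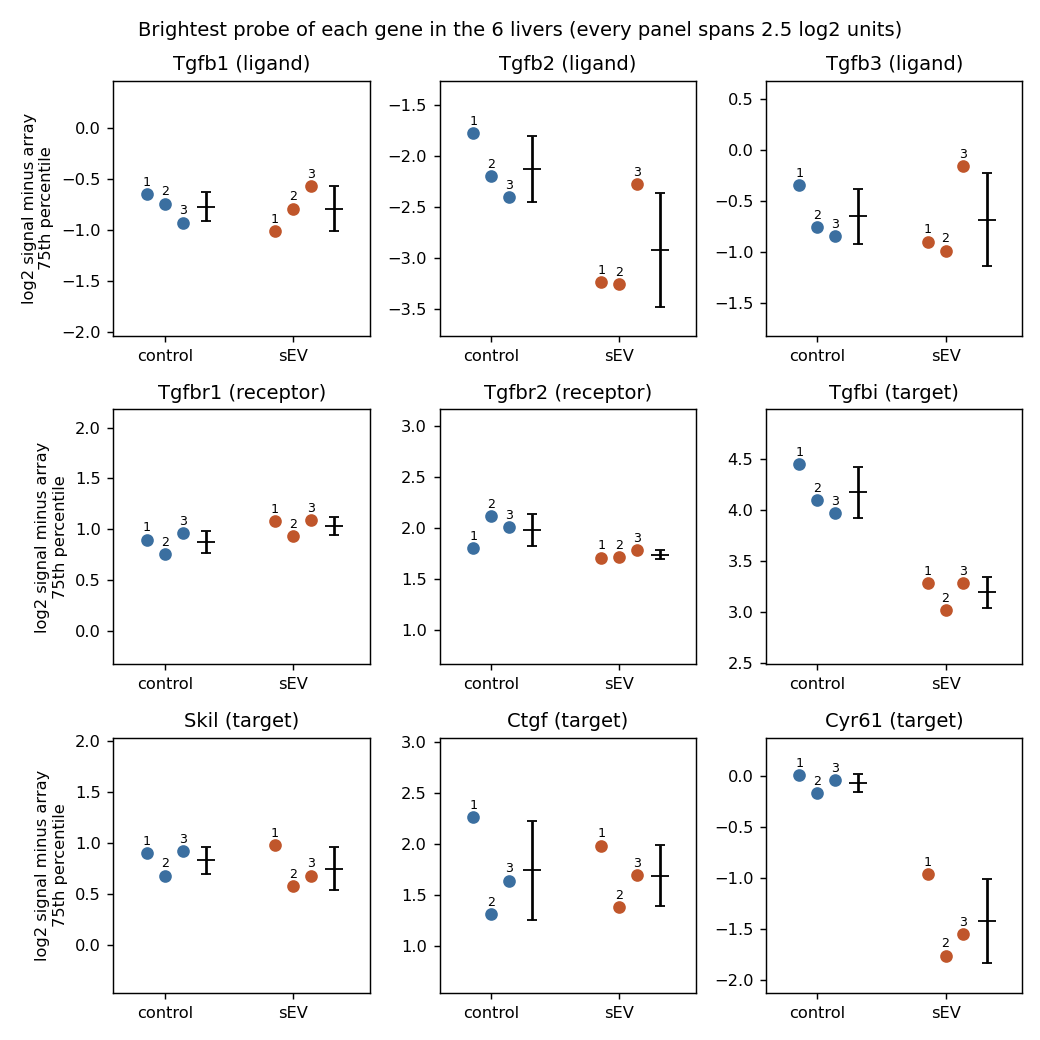
Normalized log2 signal (log2, relative to the 75th percentile of its array) of the brightest probe of each gene, with 1 point per liver numbered by its label and black bars for the mean ± SD of 3 livers. The sEV livers lie below all controls for Tgfbi, Cyr61 and, by a small margin, Tgfbr2, while sEV 3 stands apart from the other sEV livers for Tgfb2 and Tgfb3.

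Tgfb1 encodes the isoform made by many liver cells, macrophages and platelets among them. Its normalized log2 signal was -0.65, -0.74 and -0.93 in controls 1 to 3 and -1.01, -0.79 and -0.57 in sEV 1 to 3. The groups overlapped throughout, with the lowest and the highest of the 6 values both from sEV livers. The difference was -0.02 ± 0.14 (SE, n = 3 livers per group), with a 95% interval from -0.35 to 0.32 (limma adjusted p = 0.941). The interval is the narrowest of the 3 ligands. The other Tgfb1 probe was well above background on 0 arrays and was not tested.

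Tgfb3 showed the same lack of separation with more spread. It was at -0.35, -0.76 and -0.85 in control livers and at -0.90, -0.99 and -0.16 in sEV livers, where sEV 3 was above every control. The difference was -0.03 ± 0.25 (SE) with an interval from -0.64 to 0.57 (limma adjusted p = 0.939).

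Tgfb2 encodes the isoform that needs the co-receptor betaglycan for strong receptor binding. It was at -1.77, -2.20 and -2.40 in control livers and at -3.23, -3.25 and -2.27 in sEV livers. In sEV 1 and sEV 2 it was below all controls, whereas sEV 3 lay within the control range. The difference of -0.80 ± 0.30 (SE, 95% interval -1.53 to -0.06) did not pass over all genes (limma adjusted p = 0.123). Without sEV 3 it was -1.12 and passed (limma adjusted p = 0.0337), so that 1 liver decides this call. Under normexp background correction, which lifts dim signals by an offset, the difference was -0.24. The second, dimmer Tgfb2 probe, placed on the same strand of chromosome 1 as the first, was at -3.62, -3.80 and -3.96 in controls and -4.74, -5.24 and -5.70 in sEV livers. It was well above background on 2 control arrays and 0 sEV arrays, too few for the test. Its groups did not overlap, as held for 40.9% of all genes tested. Its sEV values lay below the lowest signals that sEV 1 to 3 measured well above background, -3.94, -3.60 and -3.38, so their separation is read from dim signals.

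The receptors differed little between the groups. Tgfbr1, the type I receptor kinase, was at 0.90, 0.76 and 0.97 in controls and 1.08, 0.93 and 1.09 in sEV livers, and sEV 2 lay within the control range. The difference was 0.16 ± 0.10 (SE, 95% interval -0.07 to 0.39, limma adjusted p = 0.287). A second, dimmer Tgfbr1 probe, well above background on 4 of the 6 arrays, gave -0.01 (limma adjusted p = 0.960 over 28766 probes, of which 14.1% passed). The other 2 Tgfbr1 probes were above background on 0 arrays. Tgfbr2, the type II receptor, was at 1.81, 2.12 and 2.01 in controls and 1.71, 1.72 and 1.79 in sEV livers. Every sEV liver was below every control, with control 1 just above sEV 3. The difference was -0.24 ± 0.10 (SE, 95% interval -0.49 to 0.01, limma adjusted p = 0.158).

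Tgfbi, the matrix protein gene, had the clearest separation among the targets along with Cyr61. Its processed signal before scaling was 7428, 5042 and 5143 in controls and 2739, 2168 and 2684 in sEV livers. After scaling it was at 4.45, 4.10 and 3.97 in controls and 3.28, 3.02 and 3.28 in sEV livers. All 3 sEV livers were below all 3 controls, with control 1 the highest. Tgfbi fell by 0.98 ± 0.15 (SE) on the log2 scale, a 1.97-fold difference with a 95% interval from -1.34 to -0.61 (limma adjusted p = 0.0122). With each array left out in turn it stayed called, at -1.08 to -0.84 (limma adjusted p of 0.0216 to 0.0405). For sEV 1 alone against the 3 controls it was -0.89 and did not pass, with slide row as a block (limma adjusted p = 0.102) or within row 1 (adjusted p = 0.121).

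Cyr61, the Ccn1 gene, had a processed signal of 340, 262 and 318 in controls and 144, 78.8 and 94.1 in sEV livers. After scaling it was at 0.00, -0.17 and -0.05 in controls and -0.97, -1.76 and -1.55 in sEV livers. The controls were close together, and the sEV livers lay below them with a wider spread, sEV 1 being the nearest to the controls. Cyr61 fell by 1.36 ± 0.21 (SE) on the log2 scale, a 2.56-fold difference with a 95% interval from -1.85 to -0.86 (limma adjusted p = 0.0114). It stayed called with each array left out in turn, at -1.59 to -1.19 (limma adjusted p of 0.00336 to 0.0462). For sEV 1 alone against the 3 controls the difference was -0.90, at a limma adjusted p of 0.0409 with slide row as a block, where 3.68% of all genes passed, and of 0.0505 within row 1, where 3.05% did. Under normexp it was -0.93 and passed.

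Ctgf, the CCN gene next of kin to Cyr61 and the usual marker of TGF-beta action in liver fibrosis, had no such separation. It was at 2.27, 1.31 and 1.64 in controls and 1.98, 1.38 and 1.69 in sEV livers. All 3 sEV livers lay inside the control range, and control 1 was the highest. The difference was -0.05 ± 0.27 (SE), and its 95% interval from -0.70 to 0.60 is too wide to show that Ctgf was unaltered. The signal of Cyr61 relative to Ctgf, taken within each array, was -2.26, -1.48 and -1.69 in controls and -2.95, -3.15 and -3.24 in sEV livers. The groups did not overlap, and the change of Cyr61 was more negative than that of Ctgf by 1.30 on the log2 scale. A two-sided exact permutation test gave p = 0.1, the smallest it can give with 3 against 3 livers, and this pair was compared after its values were seen. Skil, the SnoN gene, was at 0.90, 0.68 and 0.92 in controls and 0.98, 0.58 and 0.68 in sEV livers, which span the control range. Its difference was -0.08 ± 0.13 (SE, 95% interval -0.41 to 0.24, limma adjusted p = 0.691). The other 2 Skil probes were above background on 0 arrays.

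**Figure D2:**
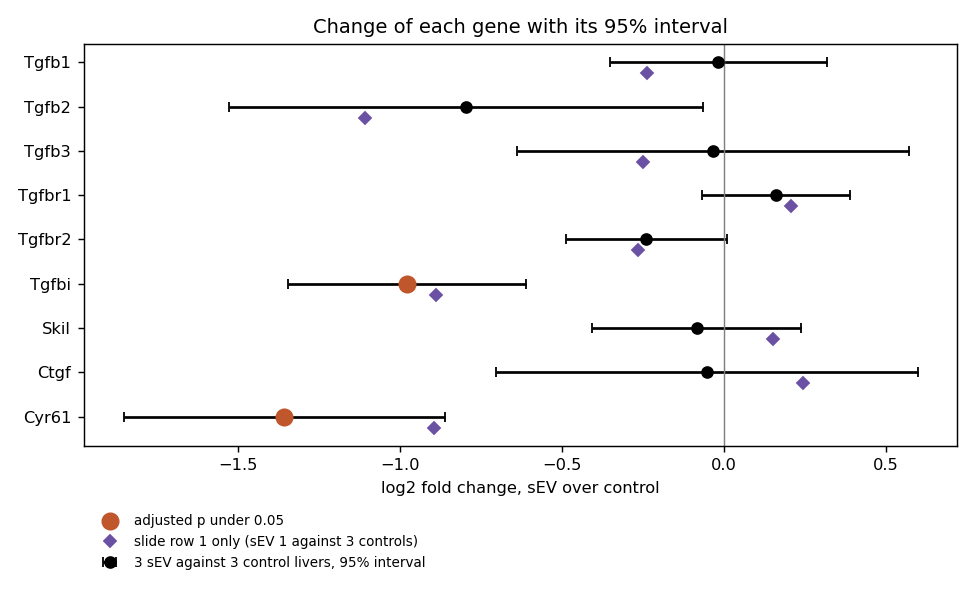
Log2 fold change of each gene (x axis, sEV over control) with its 95% interval from the limma fit of 6 livers, and purple diamonds for the contrast within slide row 1, sEV 1 against 3 controls. Tgfbi at -0.98 and Cyr61 at -1.36 passed the adjusted threshold, and the interval of Ctgf runs from -0.70 to 0.60.

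The promoters of the 2 genes that fell are shown because these are the members that passed the test. Each is the 250 bases before the transcription start, from RefSeq on GRCm38.p6, where all 9 genes were matched by accession and 6 had a promoter entry. Capitals mark matches, on either strand, to CAGAC (a SMAD-binding element), GGAATG (a TEAD site), TGANTCA (an AP-1 site) or the CArG box of serum response factor. Tgfbi lies at chr13:56609336-56609585 on the + strand and Cyr61, listed as Ccn1, at chr3:145649986-145650235 on the - strand.
Tgfbi: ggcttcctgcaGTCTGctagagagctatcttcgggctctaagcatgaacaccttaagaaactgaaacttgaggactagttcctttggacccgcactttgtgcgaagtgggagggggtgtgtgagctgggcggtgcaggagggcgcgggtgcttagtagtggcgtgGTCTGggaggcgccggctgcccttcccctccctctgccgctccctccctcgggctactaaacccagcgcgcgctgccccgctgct
Cyr61: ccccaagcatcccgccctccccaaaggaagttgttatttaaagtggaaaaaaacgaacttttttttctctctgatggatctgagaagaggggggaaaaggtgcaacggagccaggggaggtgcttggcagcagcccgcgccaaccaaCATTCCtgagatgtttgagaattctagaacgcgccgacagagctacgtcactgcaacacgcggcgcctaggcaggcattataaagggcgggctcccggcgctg

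The Tgfbi window held 2 CAGAC matches, the first bases of which lie 239 and 85 bases before the start and read GTCTG on the strand shown, and 0 TEAD matches. The Cyr61 window held 1 GGAATG match, which reads CATTCC on the strand shown and begins 103 bases before the start, and 0 CAGAC matches. Neither window held an AP-1 site or a CArG box, and no matches overlapped. Over 32851 promoter windows of this length, 42.2% held CAGAC, 12.6% GGAATG, 6.75% TGANTCA and 1.47% a CArG box. The Tgfb2 window, where the gene's difference did not pass, held 2 CAGAC matches, and that of Tgfb1 held 0 of any kind. The matches describe letters only and are no evidence of binding. On the array, the Cyr61 probe is placed by its file at chr3:145310187-145310246 on the - strand and that of Tgfbi at chr13:56740460-56740519 on the + strand, both in build mm9.

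The other genes of the pathway and of the CCN and YAP-TEAD branch were taken from 7 lists. Of their 85 tested genes, 19 passed (22.4%), 12 higher and 7 lower, against 17% of all genes, with a median log2 difference of 0.00. Leaving out 1 array reduced the 19 calls to between 2 (without control 2) and 14 (without sEV 1). Blocking slide row left 1 of them, Id3.

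**Figure D3:**
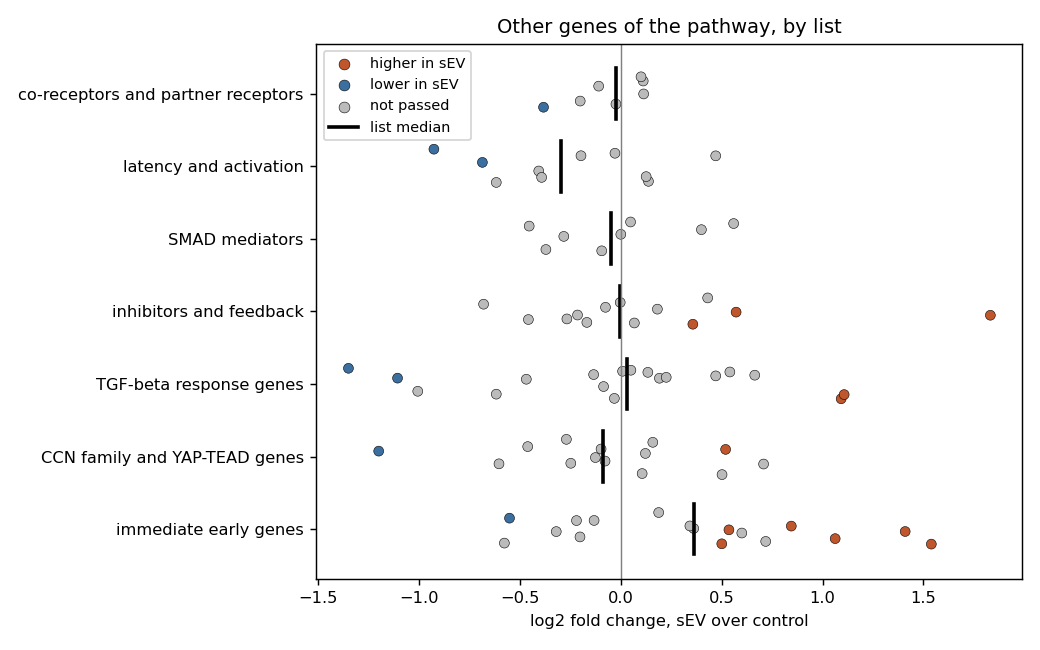
Log2 fold change (x axis, sEV over control) of the tested genes in each list, 1 point per gene, coloured by limma adjusted p under 0.05, with black lines at list medians. Points spread on both sides of 0 in most lists, with the median of the latency genes at -0.30 and that of the immediate early genes at 0.36.

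Among the genes that store and release the ligands, Fbn1 and Ltbp4 fell. They are 2 of 10 tested, the other 8 did not pass, none rose (0), and the median was -0.30. Fbn1, which encodes the fibrillin that anchors the latent complex, was at 0.03, -0.65 and -0.77 in controls and -1.37, -1.47 and -1.34 in sEV livers, with the sEV values tight and below every control. It fell by 0.93 ± 0.21 (SE) on the log2 scale (limma adjusted p = 0.0320), and a second probe gave -1.04. Ltbp4, a latent TGF-beta binding protein gene, was at 3.84, 3.48 and 3.28 in controls and 2.80, 2.89 and 2.85 in sEV livers, and fell by 0.69 ± 0.15 (adjusted p = 0.0293). Both calls ended without control 2 and without any 1 of the sEV arrays, at limma adjusted p of up to 0.0870 for Fbn1 and 0.0777 for Ltbp4. With slide row as a block both missed the threshold, at similar sizes of -0.90 and -0.74.

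Of 7 co-receptors and partner receptors, 1 fell and 6 did not pass. Acvr1, a type I receptor of the bone morphogenetic protein branch, fell by 0.38 ± 0.09 (limma adjusted p = 0.0305), while its other probe gave -0.12, and its call held only without sEV 1 among the fits that left out 1 array (adjusted p of up to 0.0917). Tgfbr3, which encodes betaglycan, had a difference of -0.02 ± 0.10 and Eng, the endoglin gene, one of -0.20 ± 0.11. Of the 8 SMAD mediators 0 passed in limma, 3 had an unadjusted p under 0.05, and the median was -0.05. At the ends of that list were Zfyve9, the gene of a receptor anchor for SMADs, at 0.56 ± 0.22 and Smad9 at -0.45 ± 0.41. The smallest p in the list was that of Smad1, a SMAD of the bone morphogenetic protein branch, at 0.40 ± 0.11 (limma adjusted p = 0.0559), which passed under 4 alternatives, normexp among them. The other Zfyve9 probe gave 0.41 (adjusted p = 0.0391 over all probes). Picked, like Smad1, after their values were seen, Smad3 had a difference of -0.37 ± 0.18 and Smad2 of -0.28 ± 0.09 with 0.26 on its other probe. Smad4, picked in the same way, had a difference of 0.05 ± 0.10. Its other probes gave 0.42, 0.30 and 0.25 (limma adjusted p = 0.0286, 0.076 and 0.158 over all probes).

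Among inhibitors and feedback genes Fst, Nedd4l and Ppm1a rose. They are 3 of 13 tested, with 0 lower, 10 not passing and a median of 0.00. Fst, which encodes the activin antagonist follistatin, was at -3.11, -3.15 and -4.19 in controls, of which 2 were well above background, and -1.07, -2.08 and -1.81 in sEV livers. Each sEV value was above each control, and Fst rose by 1.83 ± 0.37 (limma adjusted p = 0.0242), a call that ended without control 1, control 2 or sEV 3 (adjusted p of up to 0.0612), and the difference was 0.87 under normexp. Nedd4l, a ubiquitin ligase gene, rose by 0.57 ± 0.12, with its other probes at 0.70, 0.24 and 0.12, and lost its call without any 1 of the controls or sEV 3 (adjusted p of up to 0.0886). Ppm1a, a SMAD phosphatase gene, rose by 0.36 ± 0.08, with its other probes at 0.05 and -0.02, and lost its call whichever array was left out (adjusted p of up to 0.0911) and under median scaling. Named after their values were seen, Smad7, the inhibitory SMAD gene that TGF-beta induces, had a difference of 0.43 ± 0.17 (adjusted p = 0.140), and Bambi, the gene of a decoy receptor, one of -0.68 ± 0.19 (adjusted p = 0.0541). Bambi passed without sEV 1 (adjusted p = 0.0313) and under 6 of the other alternatives, median scaling, normexp and the replicate block among them.

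Genes known to respond to TGF-beta split in direction: of 18 tested, Id3 and Cdkn1a rose (2), Klf10 and Cdkn2b fell (2) and 14 did not pass, around a median of 0.03. Id3, an inhibitor of basic helix-loop-helix factors that bone morphogenetic proteins induce, was at 2.48, 2.59 and 2.44 in controls and 3.53, 3.67 and 3.59 in sEV livers. The groups were far apart and each was tight, and Id3 rose by 1.09 ± 0.09 (limma adjusted p = 0.00149), and was at 1.02 for sEV 1 alone against the controls (adjusted p = 0.0209 with the block and 0.0365 within row 1). Cdkn1a, the gene of the cell cycle inhibitor p21, rose by 1.11 ± 0.24 (adjusted p = 0.0278), and among the fits that left out 1 array it passed only without control 1 (adjusted p of up to 0.0789). Klf10, a TGF-beta inducible zinc finger gene, was at 2.53, 3.32 and 3.02 in controls and 1.76, 2.09 and 1.70 in sEV livers. It fell by 1.11 ± 0.22 (adjusted p = 0.0224), and the call ended without control 2, control 3, sEV 1 or sEV 3 (adjusted p of up to 0.0677). Cdkn2b, which encodes the cell cycle inhibitor p15, was well above background on 3 control arrays and 0 sEV arrays, so that it met the filter through the controls alone, and its count among the genes that fell carries no weight of its own. It was lower in sEV livers (limma adjusted p = 0.0250), and its control mean was 1.73-fold above the mean floor of the sEV arrays. An array's floor is the lowest signal it measured well above background. This fold compares means and is not a minimum for each liver or processing. The Cdkn2b call ended without control 2, without any 1 of the sEV arrays (adjusted p of up to 0.0706) and under normexp, where the difference was -0.30. Named after their values were seen, the contractile genes Acta2 and Tagln were at -0.03 ± 0.17 and 0.05 ± 0.25.

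Of 14 tested genes of the CCN family and the YAP-TEAD branch, 1 fell and 1 rose, with a median of -0.09. Wisp1, another CCN gene, was at 0.48, 0.09 and -0.03 in controls and -1.40, -1.14 and -0.53 in sEV livers, all of the latter below the controls. It fell by 1.20 ± 0.25 (limma adjusted p = 0.0245), lost its call without any 1 of the controls or sEV 2 (adjusted p of up to 0.0796), and was at -1.58 for sEV 1 alone against the controls (adjusted p = 0.0599 with the block and 0.0445 within row 1). Tead1, a DNA-binding partner of YAP, rose by 0.52 ± 0.13, with 1.43 on its other probe, and among the fits that left out 1 array it passed only without sEV 2 (adjusted p of up to 0.111). It also missed the threshold under median scaling. Yap1 and Wwtr1, the genes of YAP and TAZ, were at -0.13 ± 0.10 and -0.25 ± 0.15, and Amotl2, a usual YAP target, at -0.08 ± 0.19. These 3 were picked after their values were seen.

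Cyr61 and Ctgf are also immediate early genes, transcribed within minutes of a stimulus, so that class was listed as well. Of 17 tested, 6 were called higher and 1 lower, 10 missed the threshold, and the median was 0.36, opposite in sign to the change of Cyr61. Junb rose by 1.54 ± 0.27 (limma adjusted p = 0.0166), Btg2 by 1.06 ± 0.20 and Nr4a1 by 0.84 ± 0.17, whereas Jun fell by 0.55 ± 0.11. Calls ended for Junb without control 1 or control 2, for Nr4a1 without these or sEV 2, for Btg2 without any 1 of the controls or sEV 3, and for Jun without control 1, control 2, sEV 2 or sEV 3. The adjusted p in these fits went up to 0.0577, 0.0729, 0.0652 and 0.0669 in that order. For sEV 1 alone against the controls Btg2 was at 0.64, and blocking slide row left 0 of these 7 calls and the median was 0.37.

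Markers of the cells that make or receive these factors moved too, and their part in the changes of Cyr61 and Tgfbi was not tested. Of 12 stellate cell markers 4 fell and 0 rose, with Lrat at -1.09 ± 0.17, Ngfr at -0.73 ± 0.17 and Colec11 at -0.66 ± 0.17. The summed level of the list, in multiples of the 75th percentile, was 203 to 264 in controls and 174 to 224 in sEV livers, which overlap. Lrat passed with each array left out, Ngfr and Colec11 passed only without control 3 (adjusted p of up to 0.0943 and 0.130), and blocking slide row left 0 of the 4. Of 12 Kupffer cell markers 6 rose. The largest difference was that of Marco at 1.21 ± 0.28, and the largest by moderated t were C1qc at 0.76 ± 0.13 and C1qa at 0.74 ± 0.13, with Vsig4 at 0.59 ± 0.11 and C1qb at 0.72 ± 0.14, and the sum was 169 to 226 in controls and 234 to 261 in sEV livers. Leaving out control 3 ended the calls of all 5, as did control 1 for Marco, C1qc and C1qb, sEV 2 or sEV 3 for all but C1qc, and sEV 1 for Marco (adjusted p of up to 0.107). Blocking slide row left 0 of the 6. Of 8 monocyte markers 2 rose (S100a4 and Ccr2) and 3 fell, with Cx3cr1 at -2.17 ± 0.16, Itgam at -0.79 ± 0.17 and Ly6c2 at -0.56 ± 0.08, with sums of 487 to 564 and 525 to 596. These sums are mostly Fn1, which is also on the list of TGF-beta response genes, and say little of the other markers. Its mean log2 signal was 8.47 in control and 8.61 in sEV livers. The Ccr2 call held, with 1 array left out, only without sEV 1, and that of Itgam only without control 1 or control 3.

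Of 12 sinusoidal endothelial markers 1 fell, Stab1 at -0.53 ± 0.13 (a call that held, with 1 array left out, only without sEV 3), and the sums were 72.3 to 109 in controls and 71.5 to 92.3 in sEV livers. Platelets carry stored TGF-beta1, and 0 of 9 platelet and megakaryocyte markers passed in limma (2 at an unadjusted p under 0.05), with Gp6 highest at 0.59 ± 0.18 and Gp1ba lowest at -0.20 ± 0.35. Their sums were 8.41 to 13.8 and 10.69 to 13.3. At the adjusted and at the unadjusted threshold alike, 0 of 5 cholangiocyte markers passed (Sox9 at 0.19 ± 0.23, Spp1 at -0.31 ± 0.23, sums 7.62 to 13.2 and 7.34 to 8.09), and 0 of 5 mesothelial markers (Upk3b at 0.75 ± 0.99, Msln at -0.18 ± 0.73, sums 0.665 to 3.30 and 0.826 to 2.98). Of 8 hepatocyte markers 2 rose, Tat at 1.20 ± 0.12 and Hnf4a at 0.54 ± 0.10 (not passing without control 1, control 2 or sEV 3), and the sums were 3656 to 3919 and 4166 to 4816. Genes of dividing cells and erythroid precursors were lower as well. All 8 of the former fell, with Birc5 at -3.61 ± 0.13, Ccnb2 at -4.14 ± 0.16 and Cdc20 at -5.20 ± 0.18 among them, with sums of 41.1 to 51.3 and 2.56 to 3.48. Aurkb and Ccnb1, counted in the 8, were well above background on 3 control arrays and 0 sEV arrays. They met the filter through the controls alone, and their count carries no weight of its own. Of 7 erythroid genes 4 fell, among them Ahsp, well above background on only 1 of the sEV arrays, at -3.59 ± 0.34 (-1.94 under normexp), and Slc4a1 at -1.79 ± 0.32 (not passing without any 1 of the controls), with sums of 18.3 to 23.6 and 8.88 to 15.4. Blocking slide row left 1 of these 4 calls.

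Cyr61 had the larger moderated t of the 2 genes that fell, and the genes whose signal followed it most closely over the 6 arrays were Dio3os (Pearson r = 0.998), Alg13 (0.996), Mcm8 (0.995), Car2 (0.994) and Kantr (0.994). These values include the difference between the groups, and 357 genes had r over 0.95, so they serve as a description only. All 5 fell, with log2 differences of -1.86 ± 0.30, -0.58 ± 0.11, -0.89 ± 0.16, -0.68 ± 0.12 and -0.82 ± 0.13 in that order (SE).

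**Figure D4:**
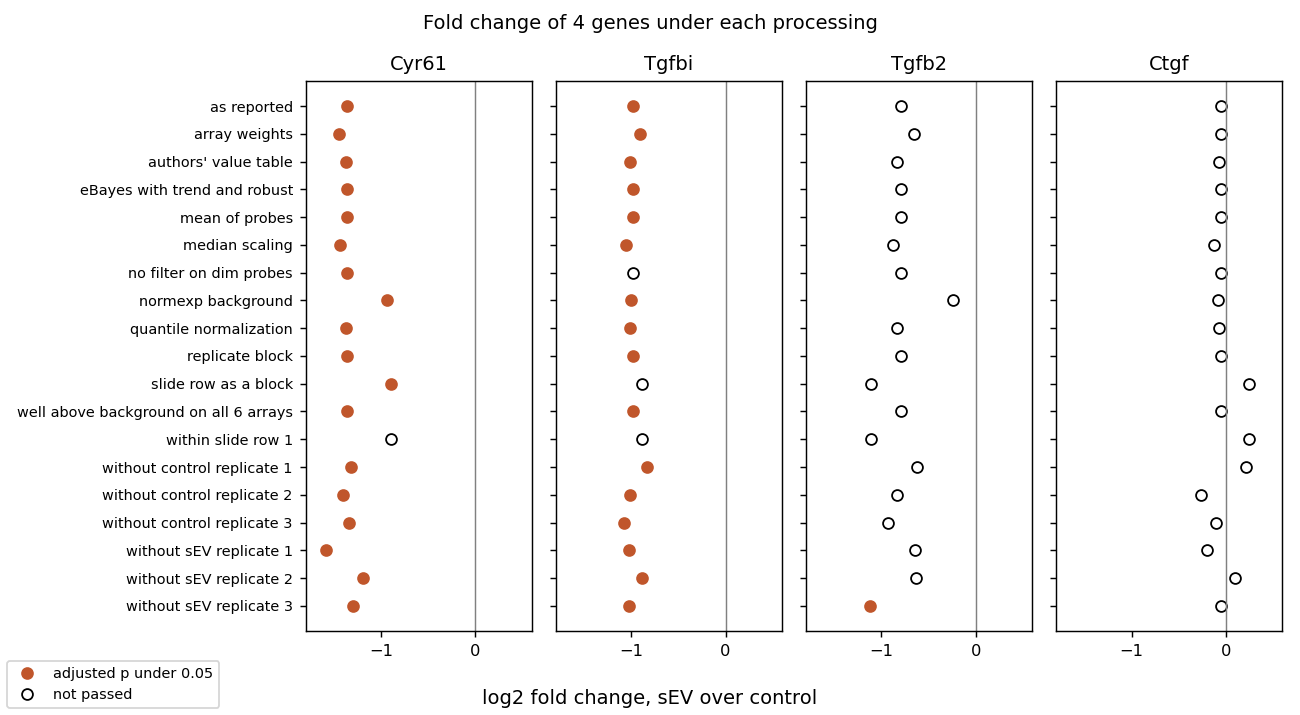
Log2 fold change (x axis, sEV over control) of Cyr61, Tgfbi, Tgfb2 and Ctgf under each processing alternative and with each array left out, filled where the limma adjusted p was under 0.05. Cyr61 and Tgfbi were below 0 in each of the 19 fits, Tgfb2 passed only without sEV 3 at -1.12, and Ctgf lay on both sides of 0.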

How the data were processed

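Liver RNA was labelled with Cy3, per the labels' protocols, and the submitters' processing notes name Agilent Feature Extraction 10.7.1.1. The deposited processed, mean and local background signals are intensity values; per the file headers the processed signal had background and spatial trends removed within each array and low values replaced, with no scaling between arrays. In the authors' deposited value table entries are log2 values with a median of 4.50 in every column, and their scaling and centring stay unknown.

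Control and outlier spots (91 to 171 per array) were left out, 0 other spots were saturated, and spots of 1 probe were averaged. A probe was kept if at least 3 of 6 arrays read it well above background, and the brightest stood for its gene (19447 genes; all 28766 kept probes were fitted too). The group difference was fitted by limma 3.58.1 (R 4.3.3, no covariates) with Benjamini-Hochberg adjustment at 0.05; ± is the standard error. The fit was tested on simulated data. Members, gene lists and tests were chosen with earlier results of these data known. Named were all members, up to 4 called genes per list by size of t or otherwise the highest and lowest, and the 5 genes nearest to the called member with the largest t. Single genes that this rule would name in a list are in part not reported here. Replicate numbers shared by the groups did not pair the samples: deviations correlated at 0.02, 0.16 and 0.02. All arrays were on 1 slide with 1 scan. Alternatives changed background correction, scaling, filter, probes per gene, variance model, weights, blocks and arrays. Exact tests used SciPy 1.17.1.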

Additional observations from a re-analysis of the deposited data

How the results depend on the processing

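The fall of Cyr61 and Tgfbi had the same direction in each fit, and 2 members passed except as follows: 1 with no filter on dim probes (Cyr61; Tgfbi then had a limma adjusted p of 0.0515), 1 after blocking slide row (Cyr61), 0 inside slide row 1 alone by limma (3 at an unadjusted p under 0.05) and 3 without sEV 3 (Tgfb2 added), so that leaving out 1 array gave 2 to 3. Related genes called were 19, against 1 with no filter, 1 after blocking slide row, 2 inside slide row 1 alone, 12 with the replicate block and 2 to 14 with 1 array left out. Over all genes 3313 passed, against 810 with no filter, 715 after blocking slide row, 594 inside row 1 alone and 1349 to 2767 with 1 array left out; the replicate block gave 2210. Over all probes 4061 passed, against 939, 797, 672 and 1498 to 3218, and 2601 with the replicate block. Higher calls were 53.3% of all calls, but 36.8% under median scaling, 40.2% with no filter, 35.1% after blocking slide row and 29.3% inside row 1 alone. Higher calls were also the minority under quantile normalization (47.3%), in the authors' value table (47.1%) and with the replicate block (49.4%). With 1 array left out they ran from 43.3% (without sEV 3) to 52.8% (without sEV 1). The replicate block changed no call among the members. Blocked and row 1 values rest on sEV 1 alone as the treated liver. Ier3 turned to -0.16 when probes had to be well above background on all 6 arrays, where another probe stood for it. With no filter more genes are tested; within row 1 fewer arrays are; the cause of the other changes was not tested. Low signals limit Tgfb2, whose difference shrank to -0.24 under normexp, and 6 member probes that were too dim to test.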
